A study of Rattus norvegicus with 35 samples.

Results

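The 10 genes described here encode transcription factors with a part in how liver cells read foreign chemicals and lipids: Ahr, Arnt, Nr1i2, Nr1i3, Ppara, Nr1h4, Nr1h3, Rxra, Hnf4a and Nfe2l2. Most sense ligands or stress, while others, such as Arnt and Hnf4a, act beside them. All 10 are called sensor genes here for short. They were listed by name, with no threshold on their values. Each was read from the probe sets annotated with its symbol alone, and where there were several the one with the highest mean over all arrays stood for the gene. All 10 were found, on 13 of the 31042 probe sets tested and among 14217 genes with a probe set of their own. Ahr had 2 probe sets and Hnf4a had 3, and the other 8 genes had 1 each.

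The livers came from male Harlan Sprague Dawley rats, 7 weeks old when the study began and fed the NTP-2000 diet, that were gavaged once a day on 5 days with TBB (2-ethylhexyl-2,3,4,5-tetrabromobenzoate, a brominated flame retardant) in corn oil at 5 ml/kg. Vehicle rats received corn oil alone (5 arrays), and the dosed groups received TBB in the same oil at 1 of 5 doses, which were 0.05, 0.55, 5.50, 55 and 550 mg/kg (6 arrays each). Necropsy was 1 day after the last dose, and RNA of the left lobe was hybridised to single-colour Affymetrix 3' arrays, 35 in all. The series compares each dose with vehicle. Arrays carry separate sample labels with no word on whether every one is a different animal, and p-values therefore measure the spread between these samples. Values are log2 expression per probe set after RMA, and because probes differ in affinity the levels of different genes were not compared. Correlations between arrays over all probe sets ranged from 0.988 to 0.997, and the array labelled 5.50 mg/kg replicate 1 stood apart in its 3' minus 5' differences of the GAPDH and beta-actin control probe sets (0.025 and 1.60 log2 units, the highest of the 35 arrays).

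AhR binds planar aromatic chemicals, enters the nucleus, pairs with ARNT and switches on Cyp1a1 and other genes of chemical breakdown. PXR (Nr1i2) and CAR (Nr1i3) respond to drugs and steroids, PPARalpha (Ppara) to fatty acids, FXR (Nr1h4) to bile acids and LXRalpha (Nr1h3) to oxysterols, and each of them binds DNA together with RXRalpha (Rxra). HNF4alpha (Hnf4a) maintains hepatocyte gene expression, and NRF2 (Nfe2l2) is released from its inhibitor KEAP1 by electrophiles and oxidants. Several of these proteins are controlled by ligand, location or stability as well as by amount, while the arrays read only their mRNA. The question put to the data was whether the mRNA of the sensors themselves changed with dose.

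Some stretches of promoter are shown because targets of AhR, PPARalpha and NRF2 had the largest called rises of the target lists at 550 mg/kg (Cyp1a1, Acot1 and Gsta3). They are the 250 bases upstream of the annotated start in RefSeq's GRCr8 rat assembly, 5' to 3' along the gene, and were picked after the motifs had been counted. Capitals mark GCGTG on either strand (CACGC on the other), the core letters of the dioxin response element that AhR and ARNT bind, in Ahr and Ppara. The Nfe2l2 stretch was searched for the antioxidant response letters TGANNNNGC on both strands and has none in these 250 bases; the longer window that runs 50 bases past the start has 1 match.
Ahr, chr6:57998902-57999151 (- strand): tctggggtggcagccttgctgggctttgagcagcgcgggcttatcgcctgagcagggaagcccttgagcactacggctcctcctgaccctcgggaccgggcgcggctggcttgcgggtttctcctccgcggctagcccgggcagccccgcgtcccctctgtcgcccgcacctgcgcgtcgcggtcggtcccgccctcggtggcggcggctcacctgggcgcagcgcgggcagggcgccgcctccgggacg
Ppara, chr7:118712357-118712606 (+ strand): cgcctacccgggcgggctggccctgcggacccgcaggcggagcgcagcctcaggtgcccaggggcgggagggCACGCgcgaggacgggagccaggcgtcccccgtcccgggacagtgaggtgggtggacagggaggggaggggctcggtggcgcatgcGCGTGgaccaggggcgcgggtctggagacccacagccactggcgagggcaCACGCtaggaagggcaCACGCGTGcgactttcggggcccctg
Nfe2l2, chr3:81029000-81029249 (- strand): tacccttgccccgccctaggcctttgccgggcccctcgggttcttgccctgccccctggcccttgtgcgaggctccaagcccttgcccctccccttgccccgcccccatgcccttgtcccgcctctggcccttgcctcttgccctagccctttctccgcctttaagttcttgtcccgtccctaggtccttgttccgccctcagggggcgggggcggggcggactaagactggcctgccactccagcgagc

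A 300-base window (250 bases before to 50 after the start) was given for 9 of the 10 genes, with 2 windows for Hnf4a and none for Nr1h4, 10 windows in all. GCGTG occurred in 2 of these 10 windows, those of Ppara (5 matches, 2 of which overlap in the run CACGCGTG) and Arnt (1 match), against 29.7% of all 33469 windows in the table. Ahr's own window held no GCGTG. TGANNNNGC occurred in 6 of the 10 windows against 40.5% of all windows, and the DR1 motif, a direct repeat read by several RXR heterodimers, in 0 of 10 against 0.0538%. A match is a run of letters in these windows and nothing more is read from it.

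No sensor gene passed the test at any dose. In limma's fit over all arrays with Benjamini-Hochberg adjustment over all probe sets tested, 0 of the 10 passed an adjusted p under 0.05 at 0.05, 0.55 or 5.50 mg/kg, where 0% of all probe sets passed. None passed at 55 mg/kg, where 0.00644% of all probe sets did (2 of them), or at 550 mg/kg, where 0.499% did (155, of which 110 were higher and 45 lower). Across the 6 groups together (moderated F test) 0 of 10 passed against 0.741% of all probe sets, and for a slope on dose rank, from 0 for vehicle to 5 for 550 mg/kg, 0 of 10 passed against 0.171%. With so few calls in all, 0 of 10 is close to the background share in each of the 7 comparisons. In whole liver tissue, fewer cells of a type and less RNA per cell cannot be told apart.

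The intervals show how large a change could have gone unseen. The 50 differences of a sensor gene between a dose and vehicle ran from -0.27 to 0.32 log2 units, and the 95% intervals of 48 of them included 0. The intervals together reached from 0.599-fold to 1.51-fold, so smaller changes within those limits were not resolved. In no sensor gene and at no dose did the dosed arrays all lie on 1 side of the vehicle arrays, which happened for 0.454%, 0.345%, 0.264%, 0.345% and 1.34% of all probe sets from 0.05 to 550 mg/kg. An unadjusted p under 0.05 was reached by 1 gene at 0.05 mg/kg (Hnf4a), by 0 at 0.55, 5.50 and 55 mg/kg and by 1 at 550 mg/kg (Rxra), where 6.05%, 3.86%, 4.95%, 4.2% and 8.67% of all probe sets reached it. By the same measure 0 of 10 passed in the F test (8.32% of all probe sets) and 2 of 10 on dose rank (Arnt and Rxra, 9.42% of all).

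**Figure D1:**
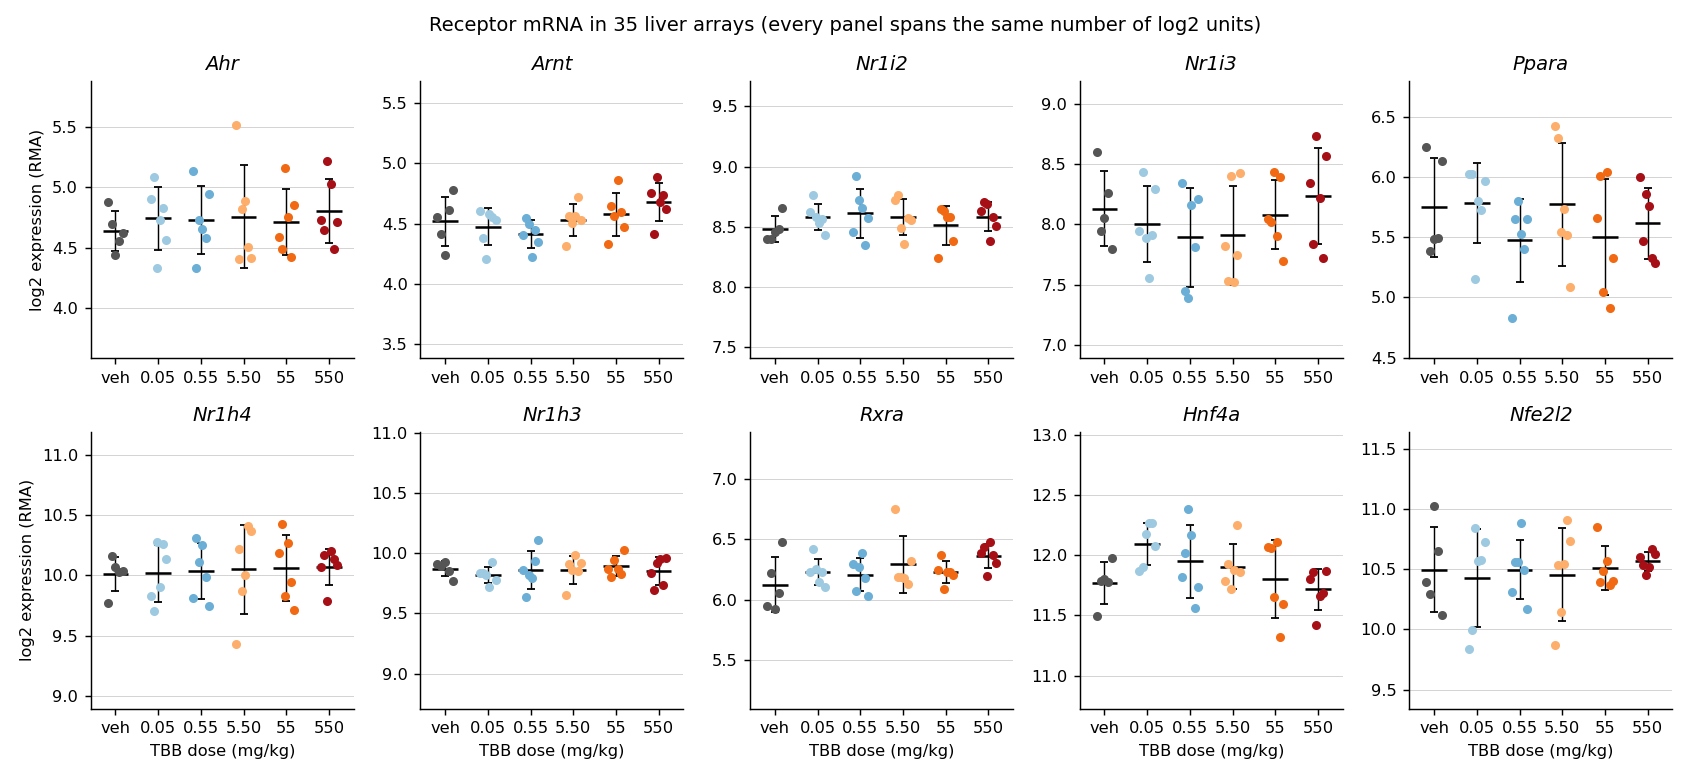
Log2 expression (RMA) of the 10 sensor genes by array, 1 point per array, against TBB dose in mg/kg (veh, vehicle), with the group mean as a bar and 1 SD as whiskers, 5 vehicle arrays and 6 arrays per dose. Group means of a gene differ by 0.06 (Nr1h4) to 0.37 (Hnf4a) log2 units, and the points of dosed and vehicle arrays overlap in every panel.

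The group means had an order that followed the dose in a single gene. Nr1h4 had a higher mean at each dose in turn, from 10.01 ± 0.14 (SD, n = 5) in vehicle through 10.02, 10.04, 10.05 and 10.06 to 10.07 ± 0.15 at 550 mg/kg (n = 6), a span of 0.06 that is 0.24 of its SD within groups. In 6 of the 10 genes the highest mean was at 550 mg/kg (Ahr, Arnt, Nr1i3, Nr1h4, Rxra and Nfe2l2). The share of all probe sets with their highest mean at that dose was not computed, and no tendency is read from the count. The means of 3 genes spanned more than 1 SD within groups: Arnt (1.70 SD), Hnf4a (1.60 SD) and Rxra (1.51 SD). The share of all probe sets with such a span was not computed, so 3 of 10 is not read as an excess. No gene had a step between neighbouring means in its order that exceeded 1 SD. That SD is of single arrays while each mean rests on 5 or 6, so smaller real steps would not show by this measure.

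Ahr, the receptor for planar aromatic chemicals, read 4.49, 4.72 and 5.22 (lowest, median and highest of 6 arrays) at 550 mg/kg, against 4.44, 4.56, 4.62, 4.70 and 4.88 in the 5 vehicle arrays. The highest array of all 35 was 5.50 mg/kg replicate 1 at 5.52. The dosed arrays lay among and above the vehicle arrays, and 5 of 6 were above the vehicle mean. The difference at 550 mg/kg was 0.17 ± 0.17 (SE), or 1.12-fold with an interval of 0.886 to 1.42, and its adjusted p in limma was 0.857. At 55 mg/kg Ahr differed by 0.07 ± 0.17 (adjusted p = 0.999). Its second probe set differed at 550 mg/kg by -0.0018 ± 0.10 (adjusted p = 0.998), and its correlation within groups with the main one was only 0.29.

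Arnt, the nuclear partner of AhR, averaged 4.68 ± 0.16 at 550 mg/kg (n = 6) and 4.52 ± 0.20 in vehicle (SD, n = 5). The difference of 0.16 ± 0.09 (SE) had an interval of -0.03 to 0.35 and an adjusted p of 0.666 in limma. On dose rank Arnt had a slope of 0.037 ± 0.016 per step, with an unadjusted p of 0.0227 and an adjusted p of 0.413, so it did not pass. Both Ahr and Arnt lay in the dimmer part of the array, brighter in vehicle than 42.9% and 40.9% of all probe sets, where RMA values can level off and differences shrink.

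Among 7 measured AhR targets, 3 rose at 550 mg/kg and 0 fell, against 0.499% of all probe sets called. Their median difference was 0.19 log2 units, against 0.0024 over all probe sets. Cyp1a1, the hydroxylase that serves as the classical read-out of AhR, averaged 11.86 ± 0.37 at 550 mg/kg (n = 6) and 4.53 ± 0.20 in vehicle (SD, n = 5), a rise of 7.34 ± 0.24 (SE), 162-fold, with an adjusted p of 7.69e-22 in limma. In vehicle it was about as dim as Ahr and Arnt, brighter than 41.0% of all probe sets, and the limit on dim probe sets applies to this fold too. Cyp1a2, a second CYP1A enzyme, rose by 1.03 ± 0.05 (adjusted p = 3.36e-16) and Nqo1, a quinone reductase also counted among NRF2 targets, by 1.76 ± 0.15 (adjusted p = 2.81e-09). The only calls among all probe sets at 55 mg/kg were Cyp1a1 (4.26 ± 0.24, adjusted p = 2.54e-14) and Cyp1a2 (0.47 ± 0.05, adjusted p = 1.46e-06). A further list held 7 partners and bHLH-PAS relatives of the receptor. Of these 0 were called at either dose, and 1 had an unadjusted p under 0.05 at each. Among them the AhR repressor Ahrr, also on the target list, read -0.08 ± 0.11 at 550 mg/kg (adjusted p = 0.91). Ahrr was dim, with a mean of 3.15 in vehicle, and the limit on dim probe sets applies to it too. Sim1, a dim bHLH-PAS gene with the smallest p among the partners and relatives, read -0.14 ± 0.05 (adjusted p = 0.394).

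**Figure D2:**
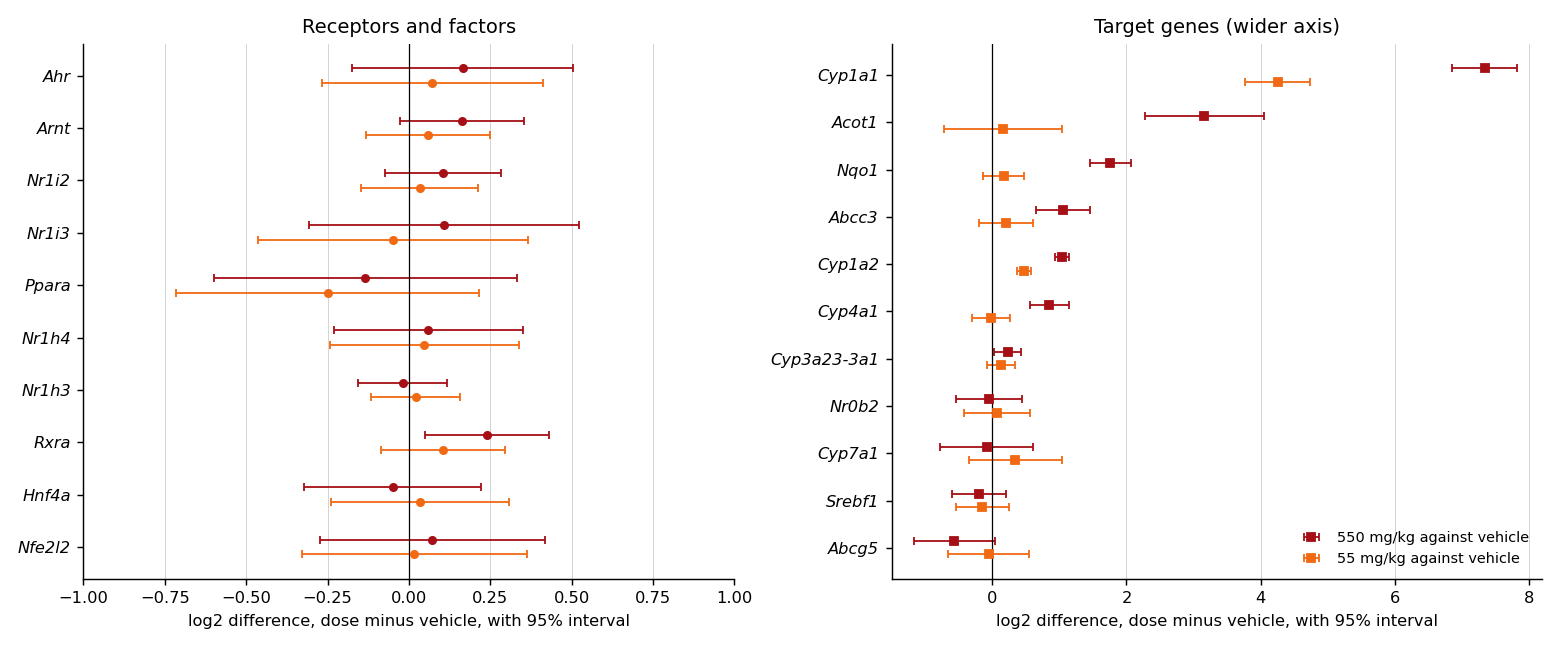
Log2 differences from vehicle at 550 mg/kg (dark red) and 55 mg/kg (orange), with 95% intervals from limma, for the 10 sensor genes (left) and 11 target genes (right, on a wider axis). The sensor genes lie between -0.25 and 0.24, while Cyp1a1 lies at 7.34 and 4.26.

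The sensors of drugs and steroids had values near those of vehicle. Nr1i2 (PXR) averaged 8.58 ± 0.12 at 550 mg/kg (n = 6) and 8.48 ± 0.11 in vehicle (SD, n = 5), a difference of 0.10 ± 0.09 (SE, adjusted p = 0.811 in limma). Nr1i3 (CAR) averaged 8.24 ± 0.40 at 550 mg/kg and 8.13 ± 0.31 in vehicle, a difference of 0.11 ± 0.20 with an adjusted p of 0.937. The interval of Nr1i3 ran from 0.807-fold to 1.44-fold, wide because its arrays differed much within every group. Of 18 measured CAR and PXR targets, 3 rose and 1 fell at 550 mg/kg, with a median difference of 0.02. Abcc3, an exporter of conjugates, rose by 1.06 ± 0.20 (adjusted p = 0.0047, but 0.111 when the 2 groups were fitted alone), Aldh1a1, an aldehyde dehydrogenase, by 0.64 ± 0.14 (adjusted p = 0.0159) and Ces2c, a carboxylesterase, by 0.38 ± 0.09 (adjusted p = 0.0262). The organic anion carrier Slco1a4 fell by 0.30 on the log2 scale (adjusted p = 0.0489). Cyp3a23-3a1, a CYP3A enzyme regulated by PXR, differed by 0.23 ± 0.10 with an adjusted p of 0.487. The targets Cyp2b1 and Cyp2b2 were not analysed here, as no probe set carried either symbol alone.

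Ppara, the fatty acid sensor, had the widest spread of the 10. It read 5.29, 5.61 and 6.00 (lowest, median and highest of 6 arrays) at 550 mg/kg, against 5.39, 5.48, 5.49, 6.14 and 6.25 in the 5 vehicle arrays. The vehicle arrays fell into 3 lower and 2 higher values, and the dosed arrays covered nearly the same stretch. The difference at 550 mg/kg was -0.13 ± 0.23 (SE, adjusted p = 0.927 in limma) with an interval of 0.660-fold to 1.26-fold, and at 0.55 mg/kg it was -0.27 ± 0.23, the lowest of all 50 differences. Of 33 measured PPARalpha targets 6 were called higher at 550 mg/kg and 0 lower, with a median of 0.15. Values of 28 targets were above 0 and those of 5 below, the lowest at -1.13 (not called). The lowest values of the list at 0.05, 0.55, 5.50 and 55 mg/kg were -1.69, -1.85, -1.69 and -0.78, none of them called. Acot1, a cytosolic acyl-CoA thioesterase, rose by 3.16 ± 0.43, 8.95-fold (adjusted p = 5.52e-05), Ehhadh, the peroxisomal bifunctional enzyme, by 1.07 ± 0.11 (adjusted p = 4.23e-07), Acot2, a mitochondrial thioesterase, by 1.06 ± 0.13 (adjusted p = 6.97e-06) and Cyp4a1, a fatty acid hydroxylase, by 0.85 ± 0.14 (adjusted p = 0.000802). Acot1 was dim in vehicle and its 550 mg/kg arrays ran from 4.38 to 8.15. Fitted on those 2 groups alone, Acot1 no longer passed (adjusted p = 0.0825). At 55 mg/kg 0 of the 33 passed.

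The bile acid and oxysterol sensors had the smallest spans of group means of the 10, 0.06 and 0.07 log2 units. Nr1h4 (FXR) averaged 10.07 ± 0.15 at 550 mg/kg (n = 6) and 10.01 ± 0.14 in vehicle (SD, n = 5), a difference of 0.06 ± 0.14 (SE, adjusted p = 0.951 in limma). Nr1h3 (LXRalpha) averaged 9.85 ± 0.11 at 550 mg/kg and 9.87 ± 0.06 in vehicle, a difference of -0.02 ± 0.07 with an adjusted p of 0.968. Its interval, 0.897-fold to 1.08-fold, was the narrowest of the 10 at that dose. None of 13 measured FXR targets and none of 17 LXR targets passed in limma at 55 or 550 mg/kg. An unadjusted p under 0.05 in limma was reached at 550 mg/kg by 3 of 13 FXR targets and 1 of 17 LXR targets, against 8.67% of all probe sets. In the other target lists it was reached by 4 of 7 (AhR), 8 of 18 (CAR and PXR), 19 of 33 (PPARalpha), 8 of 22 (NRF2) and 6 of 17 (HNF4alpha). Nr0b2 (the repressor SHP), Abcb11 (the bile salt export pump) and Cyp7a1, which opens the classical route of bile acid synthesis, differed at 550 mg/kg by -0.05 ± 0.24, -0.03 ± 0.06 and -0.08 ± 0.34. Abcb4, a phospholipid exporter, had the smallest p of the FXR list (-0.29 ± 0.12, adjusted p = 0.396). Of the LXR list, Srebf1, a regulator of lipid synthesis, differed by -0.20 ± 0.20, while the sterol exporters Abcg5 and Abcg8 had values of -0.57 ± 0.30 and -0.74 ± 0.29 (adjusted p = 0.613 and 0.403).

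Rxra, the shared heterodimer partner, had the smallest p at the top dose among the 10 main probe sets, though it did not pass. It read 6.20, 6.38 and 6.48 (lowest, median and highest of 6 arrays) at 550 mg/kg, against 5.92, 5.95, 6.06, 6.22 and 6.48 in the 5 vehicle arrays. All 6 dosed arrays were above the vehicle mean, and the groups overlapped through vehicle replicate 5 and 1 more vehicle array. The difference was 0.24 ± 0.09 (SE), 1.18-fold with an interval of 1.03 to 1.35, an unadjusted p of 0.0155 and an adjusted p of 0.396 in limma. Without vehicle replicate 5 it was 0.33, with an adjusted p of 0.14. On dose rank the slope was 0.036 ± 0.015 per step (unadjusted p = 0.0254, adjusted p = 0.425). Rxra also ran with the 3' minus 5' difference of beta-actin over the 35 arrays within groups (r = 0.66, adjusted permutation p = 0.0418; rho = 0.48, adjusted p = 0.221; r = 0.47 without the 2 farthest arrays), and the part of RNA quality in its difference was not tested. The beta-actin difference itself was 1.18 ± 0.10 at 550 mg/kg and 1.22 ± 0.08 in vehicle (SD). Of 21 other nuclear receptors and partners 0 passed in limma at 55 or 550 mg/kg, and 1 had an unadjusted p under 0.05 at 550 mg/kg. It was Rxrb, the second RXR, at -0.18 ± 0.07 (adjusted p = 0.431) with 0 of 6 arrays above the vehicle mean. Nr1h2 (LXRbeta) read 0.03 ± 0.07.

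Hnf4a depended on the probe set that was read. The brightest of its 3 read 11.87, 12.12 and 12.27 (lowest, median and highest of 6 arrays) at 0.05 mg/kg, against 11.50, 11.78, 11.78, 11.80 and 11.98 in the 5 vehicle arrays. All 6 arrays at 0.05 mg/kg were above the vehicle mean, with an overlap at the edge. The difference was 0.32 ± 0.13 (SE), 1.25-fold, the highest of the 50, with an unadjusted p of 0.0213 and an adjusted p of 0.801 in limma. The mean was lower at each higher dose in turn, from 12.09 at 0.05 mg/kg through 11.95, 11.90 and 11.80 to 11.72 at 550 mg/kg, which differed from vehicle by -0.05 ± 0.13 (adjusted p = 0.959). The slope on dose rank was -0.038 ± 0.024 (adjusted p = 0.664).

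The other 2 Hnf4a probe sets had their highest means at 550 mg/kg. The second brightest read 7.84, 7.94 and 8.02 (lowest, median and highest) at that dose, against 7.55, 7.65, 7.66, 7.74 and 7.85 in vehicle, a difference of 0.25 ± 0.08 (unadjusted p = 0.00429, adjusted p = 0.224 in limma). The third differed by 0.21 ± 0.09 (unadjusted p = 0.0233, adjusted p = 0.447). In both, all 6 dosed arrays were above the vehicle mean.

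The log2 value of the second set minus that of the brightest within each array, set to average 0 in vehicle and computed after the values had been seen, was 0.30 ± 0.17 at 550 mg/kg (SD, n = 6) against 0 ± 0.08 in vehicle (n = 5). At 0.05 mg/kg the same measure lay the other way, at -0.18 ± 0.11 (n = 6). For the third set minus the brightest it was 0.26 ± 0.23 at 550 mg/kg and -0.33 ± 0.13 at 0.05 mg/kg, against 0 ± 0.13 in vehicle. Leaving out 1 array at a time, the first of these shifts ran from 0.23 to 0.33. They are given as a description with no test, and none of the 3 probe sets passed limma at either dose. Which stretch of the transcript each one reads was not analysed here.

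**Figure D3:**
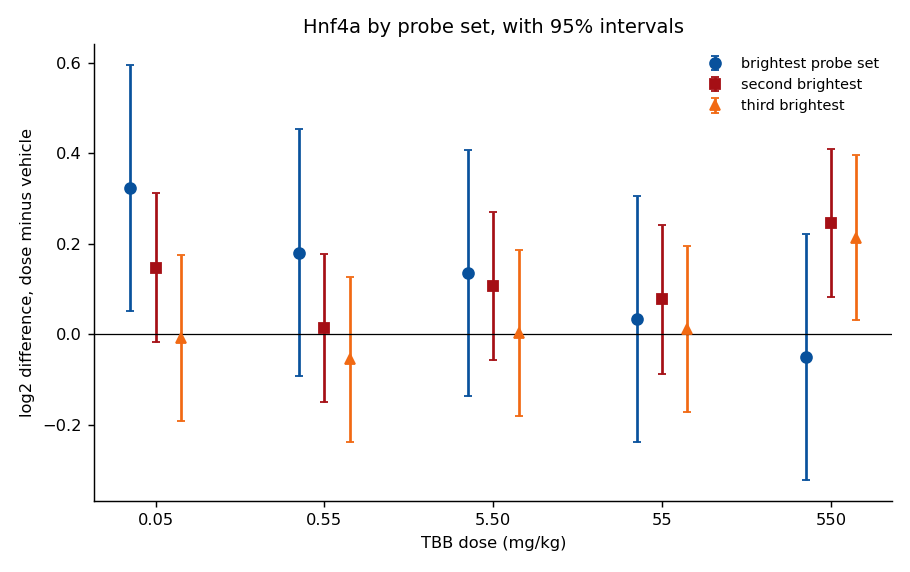
Log2 difference from vehicle (with 95% intervals from limma) of the 3 Hnf4a probe sets against TBB dose in mg/kg, 6 arrays per dose and 5 vehicle arrays. The brightest set (blue) lies at 0.32 at 0.05 mg/kg and at -0.05 at 550 mg/kg, while the other 2 are highest at 550 mg/kg, at 0.25 and 0.21.

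Of 17 measured HNF4alpha targets 0 rose and 2 fell at 550 mg/kg, the apolipoprotein genes Apoa4, by 0.75 on the log2 scale (adjusted p = 8.34e-05), and Apoa1, by 0.51 (adjusted p = 7.3e-06). Apoa1 was also the 1 called gene of 10 hepatocyte markers, whose mean log2 level was 13.53 to 13.65 at 550 mg/kg and 13.63 to 13.68 in vehicle. Values of 7 of these 10 markers were below 0 at 550 mg/kg (median -0.05), and 3 had an unadjusted p under 0.05 in limma. None of 12 other liver transcription factors passed or had an unadjusted p under 0.05 at 550 mg/kg, and the one with the smallest p was Foxa3 (-0.46 ± 0.28, adjusted p = 0.702). Markers of other cells had 0 called at 550 mg/kg. Unadjusted p-values under 0.05 in limma were reached there by both red blood cell markers and 2 of 7 stellate cell markers. They were also reached by 1 of 6 endothelial and 1 of 7 lymphocyte markers, against 8.67% of all probe sets. No Kupffer cell, cholangiocyte or neutrophil marker reached them. The values of all 8 Kupffer cell and macrophage markers were below 0 (median -0.22), as were those of both red blood cell markers (median -0.50), all 6 sinusoidal endothelial markers (median -0.07) and 6 of 7 stellate cell markers (median -0.15). At 0.55 mg/kg all 8 Kupffer cell (median -0.25) and all 6 endothelial markers (median -0.12) were also below 0. So were all 7 stellate cell markers at 5.50 and 55 mg/kg (medians -0.21 and -0.19) and both red blood cell markers at every dose. Values of 7 of 8 Kupffer cell markers were below 0 at 0.05, 5.50 and 55 mg/kg. The same held for 5 of 6 endothelial markers at 0.05 and 5.50 mg/kg and 6 of 7 stellate cell markers at 0.55 mg/kg. Every dose was compared with the same 5 vehicle arrays. At 0.05 mg/kg 5 of 7 stellate cell markers were above 0, as were 3 of 6 endothelial markers at 55 mg/kg. Cholangiocyte, lymphocyte and neutrophil markers went both ways at 550 mg/kg (medians -0.03, -0.05 and -0.06). The mean log2 level of the Kupffer cell list was 8.12 to 8.79 at 550 mg/kg and 8.51 to 8.90 in vehicle, and that of the red blood cell pair 8.78 to 9.38 at 550 mg/kg and 9.29 to 9.99 in vehicle. The endothelial list read 8.36 to 8.51 at 550 mg/kg and 8.48 to 8.60 in vehicle, and the stellate cell list 6.80 to 7.28 at 550 mg/kg and 6.85 to 7.42 in vehicle. The part of the cell make-up in the Hnf4a and Rxra values was not tested.

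Nfe2l2 (NRF2) read 10.45, 10.57 and 10.67 (lowest, median and highest of 6 arrays) at 550 mg/kg, against 10.12, 10.29, 10.39, 10.65 and 11.03 in the 5 vehicle arrays. The dosed arrays sat inside the vehicle range and closer together, with an SD of 0.080 against 0.35 in vehicle, a contrast that was not tested. The difference in level was 0.07 ± 0.17 (SE, adjusted p = 0.951 in limma). Of 22 measured NRF2 targets 4 rose at 550 mg/kg and 0 fell, with a median of 0.12. Besides Nqo1 these were Gsta3, a glutathione transferase (1.79 ± 0.24, adjusted p = 2.55e-05), Gsr, glutathione reductase (0.45 ± 0.09, adjusted p = 0.014), and Txn1, thioredoxin (0.22 ± 0.05, adjusted p = 0.0383). Keap1, the inhibitor of NRF2, differed by 0.04 ± 0.06, and 0 of 10 NRF2 regulators and partners passed or had an unadjusted p under 0.05, with Nfe2l1 at the smallest p (-0.12 ± 0.07, adjusted p = 0.65). Of 13 coregulators of nuclear receptors 0 passed, and the corepressor subunit Tbl1xr1 was the 1 with an unadjusted p under 0.05 (-0.18 ± 0.06, unadjusted p = 0.00402, adjusted p = 0.222).

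At 55 mg/kg the lists other than AhR targets held no call. The smallest p in each belonged to Sim1 (-0.13, in the list of AhR partners, unadjusted p = 0.0196), Ephx1 (-0.17, in the CAR and PXR and the NRF2 list), Eci1 (0.20), Abcc2 (-0.15), Abca1 (0.46), Apoa1 (-0.13), Nr1d2 (-0.36), Ncoa2 (0.10), Bach1 (0.11) and Cebpa (-0.26), all log2 differences from vehicle with an adjusted p of 0.999 in limma. At 0.05, 0.55 and 5.50 mg/kg limma called 0 genes of any list.

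Several sensor genes differed much between arrays of the same group. The SD within groups, pooled over the 6 groups, was 0.40 for Ppara, 0.36 for Nr1i3, 0.30 for Nfe2l2, 0.29 for Ahr, 0.25 for Nr1h4 and 0.23 for Hnf4a, each above the 90th percentile of all probe sets, whose median was 0.14. These 6 were also above the 90th percentile of the probe sets of like brightness (20 bins), at 92.3 for Hnf4a to 97.4 for Ppara. Rxra and Arnt (0.16 each) and Nr1i2 (0.15) lay nearer the middle, and Nr1h3 (0.11) was below the median of its bin.

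**Figure D4:**
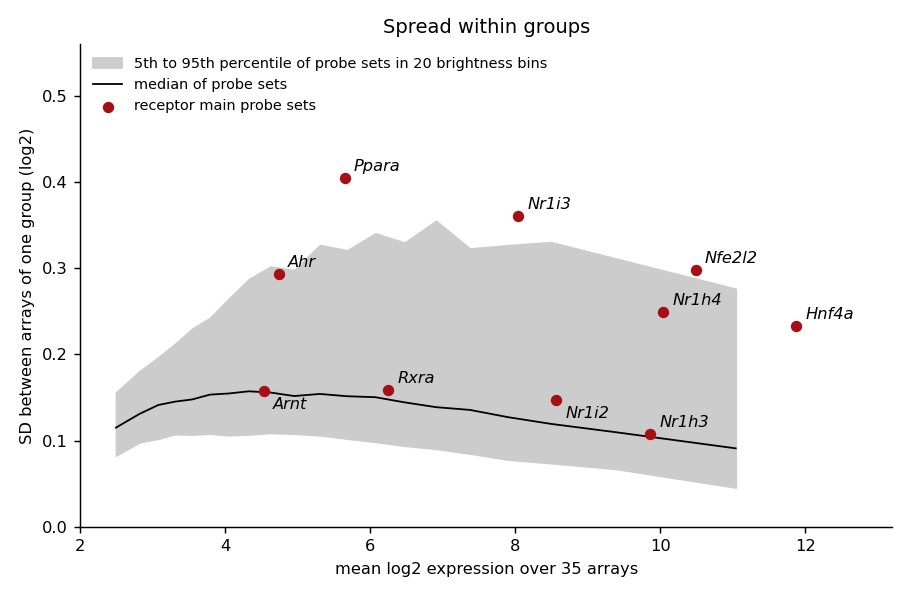
SD between arrays of one group (log2, pooled over the 6 groups) against mean log2 expression over 35 arrays for the main probe sets of the 10 sensor genes (red), with the median (line) and the 5th to 95th percentile (grey) of all probe sets in 20 brightness bins, drawn at each bin's median brightness. Ppara, Nr1i3 and Nfe2l2 lie above the grey band, while Nr1h3 lies on the median line and Hnf4a lies beyond the brightest bin's median.

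That spread was shared between some of the genes. Correlations were computed over the 35 arrays after the mean of each group had been subtracted, for all 45 pairs, with permutation within groups and Benjamini-Hochberg adjustment over the 45. Of the pairs 20 were positive and 25 negative, and 5 passed by both Pearson's r and Spearman's rho. An absolute r of at least 0.5, a limit set after the values were seen, was reached by 5 of the 45 pairs (11.1%). Among all pairs of the 14217 genes 2.25% reached it, and this contrast was not tested. The pairs at this limit include Nr1i2 with Nr1h3 and leave out Hnf4a with Nfe2l2, so they are not the same set as those that passed by both. Pairs that passed by both join only Ahr, Nr1h4, Hnf4a and Nfe2l2, all of wide spread within groups. The share for all genes was not matched for spread, and whether wide spread alone gives such a share was not tested. Nr1h4 went with Nfe2l2 (r = 0.67, adjusted p = 0.00113; rho = 0.61, adjusted p = 0.00529) and with Hnf4a (r = 0.65, adjusted p = 0.00203; rho = 0.69, adjusted p = 0.00203). Hnf4a went with Nfe2l2 (r = 0.47, adjusted p = 0.024; rho = 0.52, adjusted p = 0.0131). By rho alone, Nr1i3 with Hnf4a (r = -0.48, adjusted p = 0.051; rho = -0.48, adjusted p = 0.0417) and Nr1i2 with Nr1h3 (r = -0.51, adjusted p = 0.0541; rho = -0.49, adjusted p = 0.0417) passed too.

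Ahr ran opposite to Nr1h4 and Nfe2l2. Its r was -0.78 with Nr1h4 (adjusted p = 0.0009; rho = -0.71, adjusted p = 0.00203) and -0.63 with Nfe2l2 (adjusted p = 0.00203; rho = -0.60, adjusted p = 0.00529). The sign of the Ahr and Nr1h4 relation was negative in all 6 groups, and Nr1h4 was positive with Nfe2l2 and with Hnf4a in 6 of 6. Without the 2 arrays farthest from the median of the first-named gene, r was 0.62, 0.68, 0.50, -0.58 and -0.70 for Nr1h4 with Nfe2l2, Nr1h4 with Hnf4a, Hnf4a with Nfe2l2, Ahr with Nfe2l2 and Ahr with Nr1h4. Without the array that stood apart, 5.50 mg/kg replicate 1, the 5 values in the same order were 0.60, 0.69, 0.48, -0.53 and -0.70. With the 3' minus 5' differences of the control probe sets removed they were 0.58, 0.71, 0.56, -0.48 and -0.71.

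**Figure D5:**
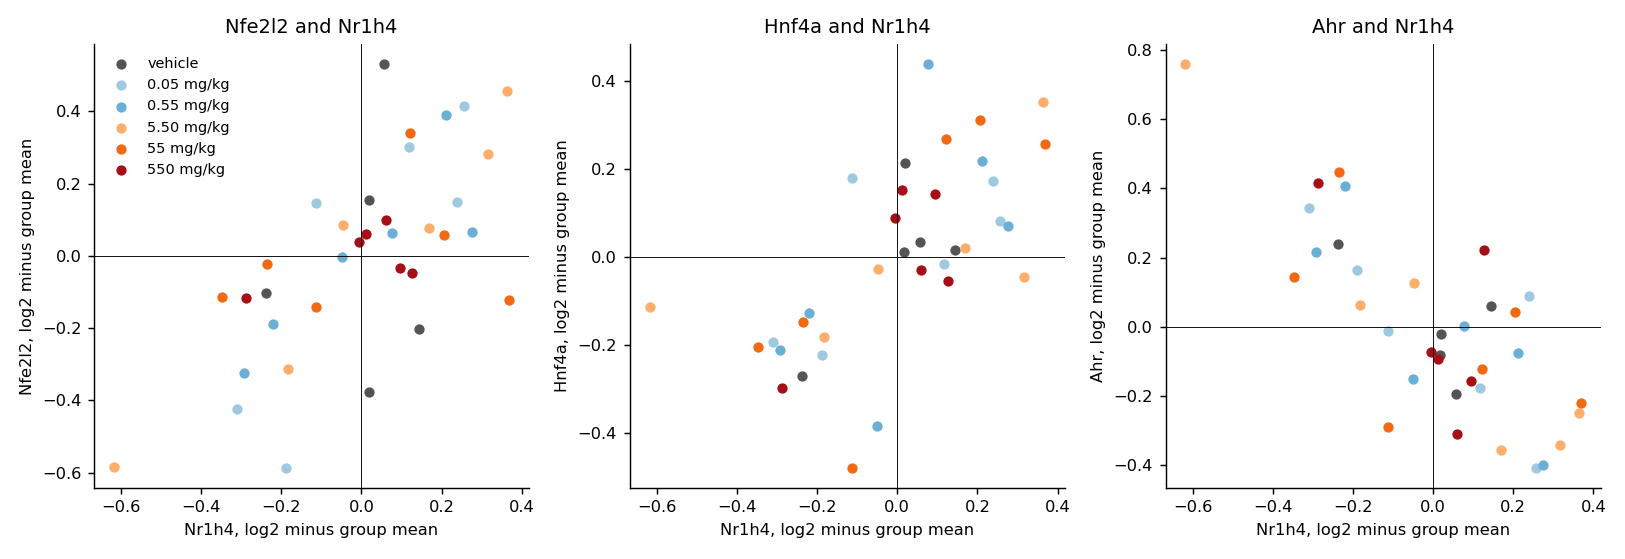
Log2 expression of Nfe2l2, Hnf4a and Ahr (vertical axes) against Nr1h4 (horizontal axes) in 35 arrays, each value minus the mean of its dose group, coloured by group. Nfe2l2 (r = 0.67) and Hnf4a (r = 0.65) slope upward and Ahr (r = -0.78) downward, and 5.50 mg/kg replicate 1 is the array at the far left of each panel.

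These relations rest on the main probe sets. The second Ahr probe set had an r of -0.39 with Nr1h4 and -0.50 with Nfe2l2, and the other Hnf4a probe sets had 0.41 and 0.088 with Nr1h4 and 0.31 and 0.14 with Nfe2l2. Over the same arrays, 12 pairs of a receptor with a target were examined. Ahr with Cyp1a1 gave r = 0.52 (adjusted permutation p = 0.0355) and rho = 0.51 (adjusted p = 0.0541), and r was 0.37 without the 2 farthest arrays. The array that stood apart, 5.50 mg/kg replicate 1, was the highest of its group in both genes (Ahr 5.52, Cyp1a1 5.46). This pair was not recomputed without that array alone or with the second Ahr probe set. None of the other 11 pairs passed, among them Arnt with Cyp1a1 (r = 0.02), Ppara with Acot1 (r = -0.30) and Nfe2l2 with Nqo1 (r = 0.06). Of 110 relations between a sensor gene and an array measure (control probe set differences and cell type scores), r passed for Rxra with beta-actin, given above, and for Nr1h3 with the Kupffer cell and macrophage score (r = 0.69, adjusted p = 0.0352; rho = 0.52, adjusted p = 0.221; r = 0.52 without the 2 farthest arrays). By rho 0 of the 110 passed.

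The genes whose pattern over the 35 arrays within groups was most like that of each sensor, named by Pearson's r as a description, were Gtpbp4, Cstf2t and Alas1 for Nr1h4 (0.87, 0.87 and 0.86), Palld, Tsku and Trim47 for Hnf4a (0.86, 0.85 and 0.85), and Tgs1, Skil and Slc1a4 for Nfe2l2 (0.87 each). For Nr1h3 they were Tmem50a, Arpc5 and Manbal (0.83, 0.80 and 0.79), for Ahr Cblb, Cmip and Tmem170a (0.76, 0.74 and 0.74) and for Nr1i2 Syncrip-ps2, Ubr2 and Rdx (0.76, 0.73 and 0.71). Nr1i3 was most like Pcp4l1, Abhd1 and Rabac1 (0.70, 0.68 and 0.68), Rxra like Prr12, Capn13 and Wasf3 (0.69, 0.69 and 0.68), Ppara like Rnft1, Elovl6 and Nipbl (0.68, 0.65 and 0.64) and Arnt like Adsl, Sec13 and Minpp1 (0.64, 0.61 and 0.59). These r values were picked as the highest of all genes with a main probe set, so they carry no p.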

How the data were processed

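Each probe set has 1 log2 value per array in the deposited table, which came from RMA in affy according to the submitters' processing notes, and no version, chip file or filtering step is given in the sources used here. RMA by its usual definition corrects background, quantile-normalises between arrays and summarises probes, which hides any shift common to most genes. Per the labels' protocols, RNA had an integrity number of at least 7.0. The values were used as deposited: of 31099 probe sets 57 Affymetrix controls were left out. A platform annotation gave 20826 probe sets 1 gene symbol and 436 several, with 9780 not listed with a gene.

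Groups came from the labels. One mean per group was fitted over 35 arrays with limma 3.58.1 in R 4.3.3 (lmFit, contrasts, eBayes, two-sided; Benjamini-Hochberg within a comparison, adjusted p under 0.05), not with the R/maanova package of the design text. The comparisons were each dose against vehicle, an F test across groups and a slope on dose rank. Lists were described by counts and medians, on 1 probe set per gene. Correlations used 100000 permutations within groups in Python 3.11.15 with scipy 1.17.1. Scripts were tested on simulated data. Precision depends on how many arrays there are: the median SE of a difference at 550 mg/kg was 0.085. Over 85 pairs of arrays with the same replicate number, the mean correlation of deviations was -0.0063, from -0.32 to 0.26, with 19 over 0.1. No pairing by number was therefore used, though this check cannot show whether arrays of 1 number shared a day or batch.

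Named genes were the 10 sensors and their other probe sets, up to 3 called genes per list with the largest change at 55 and 550 mg/kg (otherwise the gene with the smallest p), 16 targets and partners whatever their values, and the 3 genes most alike each sensor; Slco1a4 and Txn1 were named after their values were seen. The members and lists were chosen with earlier results of these data known. The receptor and target correlations, those with array measures and the Hnf4a probe set comparison were added after values had been seen. Promoter windows came from RefSeq (GRCr8). Scanner-level data and batches were not analysed here.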

Additional observations from a re-analysis of the deposited data

Results flagged for a closer look

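Among 114 groups of arrays tested (19 probe sets in 6 groups), 5 had 1 array far from the others by Dixon's 95% criterion, where chance alone flags about 1 in 20 groups. In vehicle, replicate 3 read 4.133 for the second Ahr probe set, the lowest of its 5 arrays, with the next at 4.316. Nr1h4 read 9.785 in 550 mg/kg replicate 3, the lowest of 6, with the next at 10.07. Nqo1, the quinone reductase, read 8.525 in the same array, also the lowest, with the next at 9.263. Ppara read 5.152 in 0.05 mg/kg replicate 3, the lowest of 6, with the next at 5.722. Rxra read 6.755 in 5.50 mg/kg replicate 1, the highest of 6, with the next at 6.325; this is the array with the highest GAPDH and beta-actin 3' minus 5' differences of the 35.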

How the results depend on the processing

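The count of sensor genes that passed was 0 in all settings run: 22 for each dose against vehicle, 45 for the F test and 46 for the slope. Settings were a filter that leaves out the 40% dimmest probe sets, array medians subtracted, cyclic loess between arrays, other variance models, array weights, only the groups compared, other probe set rules, a 1.2-fold limit, the slope without vehicle and each array left out. Of 2010 values of single genes 0 passed, 97 changed sign, all of them uncalled, and the lowest adjusted p was 0.114 (Hnf4a, slope over the 5 dosed groups alone). Over leave-one-out settings Rxra at 550 mg/kg ranged from 0.19 to 0.33. Of 178 list genes 18 passed at 550 mg/kg, and 12 to 23 over the settings. With the replicate number as a block 0 sensor genes and 15 list genes passed. Replicate numbers are shared by label alone, and 5 of 35 arrays correlated best with an array of their own number. The count to be had by chance was not computed. Removing means of replicate numbers left r of Nr1h4 with Nfe2l2 at 0.75 and of Ahr with Nr1h4 at -0.76. For arrays, precision is limited by their number. No detection calls were used here, so the signal over background of the dimmer Ahr, Arnt, Cyp1a1 and Ahrr was not measured.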
